A study of Mus musculus with 30 samples.

Results

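The 10 genes described here carry cystine into the cell, shape and repair membrane lipids, or take up and store iron: Slc7a11, Slc3a2, Gpx4, Acsl4, Acsl3, Lpcat3, Tfrc, Fth1, Ftl1 and Aifm2. They were chosen by name for these roles, with earlier results of these data known. All 10 were found among the 49315 genes counted and were tested. Their mRNA was measured by bulk sequencing of polyA RNA in 2 mouse tumor cell lines on a C57BL/6 background, with 3 libraries in each of 8 groups. B16F10 is a melanoma line. The 6694c2 line came from pancreatic ductal adenocarcinoma (PDAC) of mice carrying Pdx-cre with, among other alleles, a floxed p53 allele and a floxed YFP reporter. Cells of each line were cultured for 24 h with vehicle, IFNγ (100 ng/mL), IFNβ (1000 U/mL) or a STING agonist (225 μg/mL). The 6694c2 medium contained β-mercaptoethanol, a thiol known to reduce cystine in culture medium. The study's description of its lines does not give the B16F10 medium, so line and medium cannot be told apart. Nothing in the labels says whether the 3 libraries of a group came from separate cultures, so p-values measure the spread between these libraries, which may be technical.

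Ferroptosis is a form of cell death in which iron drives the peroxidation of polyunsaturated lipids in membranes. Slc7a11 and Slc3a2 encode the light and heavy chain of system xc-, which imports cystine in exchange for glutamate and so feeds glutathione synthesis. Gpx4 uses glutathione to reduce lipid hydroperoxides, and Aifm2 (FSP1) regenerates the lipid-soluble antioxidant ubiquinol by a separate route. Acsl4 and Lpcat3 load polyunsaturated fatty acids into phospholipids, while Acsl3 activates monounsaturated ones, which compete for the same positions. Tfrc, the transferrin receptor, brings iron in, and Fth1 and Ftl1, the heavy and light ferritin chains, store it.

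Ferritin and transferrin receptor mRNAs are the textbook targets of the iron regulatory proteins, which bind hairpins called iron-responsive elements, in front of the ferritin coding sequences and behind that of Tfrc. Letters of the loop and bulge of this element (C, any 5 bases, CAGTG and any base, on the sense strand) were searched in the untranslated regions (UTRs) of protein-coding transcripts of GENCODE M21 (GRCm38). They occurred in 8.21% of the 5′ UTRs and 27.05% of the 3′ UTRs. The 5′ UTRs of Ftl1-201 and Fth1-201 held them at 1 place each, the 3′ UTR of Fth1-201 at 1 place, and the 3′ UTR of Tfrc-201 at 5 places. Places were listed for Fth1, Ftl1 and Tfrc only, so whether the other genes described here hold the letters is not given. These sites are shown because the 3 genes fell with both interferons, and CAGTG is in capitals. Whether the elements had a part in that fall was not tested. For Tfrc, 3 places are given, since the 29-base windows around the other 2 overlap each other, though the matched letters do not. A match of letters is a description, not evidence of binding.

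Fth1, 5′ UTR, chr19:9982732-9982760, plus strand: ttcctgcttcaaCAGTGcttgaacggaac
Ftl1, 5′ UTR, chr7:45459779-45459807, minus strand: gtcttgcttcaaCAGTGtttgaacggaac
Tfrc, 3′ UTR, chr16:32631219-32631247, plus strand: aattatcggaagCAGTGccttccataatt
Tfrc, 3′ UTR, chr16:32631598-32631626, plus strand: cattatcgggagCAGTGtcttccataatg
Tfrc, 3′ UTR, chr16:32631710-32631738, plus strand: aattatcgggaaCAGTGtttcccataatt

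Promoters were searched in the RefSeq windows from 250 bases before to 50 bases after each start site (GRCm38.p6), of which 15 belong to the 10 genes. On either strand, the pattern of an interferon-stimulated response element (GAAA, any 2 bases, GAAA) occurred in 3.44% of 32851 promoters, and the antioxidant response element core TGACNNNGC in 12.39%. Neither occurred in the 15 windows. The gamma-activated site pattern TTCNNNGAA was in 8.3% of all promoters and only in that of Slc7a11 among the 10 genes, 183 to 175 bases before the start site. The core TGATGNAA, bound by C/EBP and ATF factors in amino acid stress, was in 3.97% of all promoters. Slc7a11 held it at 66 and, on the opposite strand, at 47 bases before its start site, in capitals below. The window is shown because Slc7a11 differed most between the lines.

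Slc7a11, 250 bases before the start site, chr3:50443614-50443863, minus strand: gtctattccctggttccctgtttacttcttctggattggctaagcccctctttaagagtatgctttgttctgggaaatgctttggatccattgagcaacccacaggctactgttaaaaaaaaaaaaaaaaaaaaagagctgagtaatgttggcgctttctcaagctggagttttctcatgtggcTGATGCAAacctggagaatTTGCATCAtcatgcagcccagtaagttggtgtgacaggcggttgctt

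By the coordinates of the count tables (mm10), Slc7a11 lies at chr3:49892526-50443614 (minus strand), Slc3a2 at chr19:8706882-8723369 (minus), Gpx4 at chr10:80047166-80056439 (plus), Acsl4 at chrX:142317993-142390535 (minus) and Acsl3 at chr1:78657825-78707743 (plus). Lpcat3 lies at chr6:124663027-124704418 (plus), Tfrc at chr16:32608920-32632794 (plus), Fth1 at chr19:9982703-9985092 (plus), Ftl1 at chr7:45457944-45459884 (minus) and Aifm2 at chr10:61715263-61739260 (plus).

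The libraries held between 15543131 and 32266795 counted reads. Melanocyte markers (Tyr, Dct, Tyrp1, Pmel, Mlana, Mitf and Sox10) summed to between 16000 and 20000 CPM (read counts scaled to a common library total) in B16F10 libraries and 17.4 to 120 CPM in 6694c2 libraries. Ductal epithelial markers (Krt8, Krt18, Krt19, Epcam, Cdh1, Muc1 and Cldn4) summed to 11800 to 13800 CPM in 6694c2 and 14.4 to 144 CPM in B16F10. The summed haematopoietic, fibroblast and endothelial markers stayed at or below 21.6, 6.02 and 0.759 CPM in every library, with Cd3e at 0 reads in 7 of the 8 groups. Transcripts specific to 6694c2 were present in B16F10 libraries at a median of 0.166 to 0.617% of their 6694c2 level with vehicle and interferons and 0.936 to 1.15% with STING agonist. Transcripts specific to B16F10 were present in 6694c2 libraries at 0.199 to 0.859%. The interferon-response gene Isg15 rose in both lines with IFNγ (log2 fold change 2.86 in B16F10 and 4.89 in 6694c2) and with IFNβ (3.88 and 8.60), and with STING agonist in B16F10 cells (1.93). In 6694c2 cells its log2 fold change with STING agonist was 0.61 (adjusted p = 0.222), while Ifit1, another such gene, rose there (0.62, adjusted p = 0.0339).

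The lines were first compared in vehicle, per gene length (RPKM, with all 24 libraries scaled together). In bulk RNA, fewer expressing cells and less RNA per cell cannot be told apart. Ferritin mRNAs were the most abundant of the 10: Fth1 stood at 2397 ± 17.4 RPKM in B16F10 and 2156 ± 142 RPKM in 6694c2 (SD, n = 3), and Ftl1 at 2466 ± 26.5 and 1770 ± 101 RPKM. Fth1 and Ftl1 together took 0.569 to 0.580% of all reads on genes in B16F10 vehicle libraries and 0.375 to 0.418% in 6694c2. Gpx4 followed, with 175 ± 9.75 RPKM in B16F10 and 188.5 ± 17.5 RPKM in 6694c2. Aifm2 (6.00 ± 0.210 and 4.79 ± 0.161 RPKM) and Acsl4 (8.54 ± 0.246 and 10.9 ± 0.421 RPKM) were far lower in both lines.

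Slc7a11 set the lines apart: 0.715 ± 0.0163 RPKM in B16F10 against 10.4 ± 2.00 RPKM in 6694c2. The edgeR estimate was 14.5-fold higher in 6694c2 (log2 fold change 3.86 ± 0.123 SE, adjusted p = 8.51e-28). Its partner Slc3a2 stood at similar values, 63.3 ± 2.13 and 60.9 ± 4.96 RPKM, with a 95% interval of the log2 difference from -0.18 to 0.07. Per length, the Slc3a2 to Slc7a11 ratio was 83.1 to 91.9 in B16F10 vehicle libraries and 5.21 to 6.53 in 6694c2. Its size rests on the annotated gene lengths, 3529 bases for Slc3a2 and 13922 for Slc7a11. The lengths of the expressed transcripts were not measured. In reads, Slc3a2 had 4800 against 206 for Slc7a11 in B16F10 vehicle replicate 1, and 3996 against 3028 in 6694c2 vehicle replicate 1. Slc3a2 also pairs with other amino acid transporters.

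Of the 10 genes, 8 differed between the lines in vehicle, against a background of 58% of all genes tested. Besides Slc7a11, 6694c2 cells had more Acsl3 (1.80-fold), Lpcat3 (1.55-fold) and Acsl4 (1.27-fold), the genes that route fatty acids into membranes. They had less Tfrc (0.55-fold), Ftl1 (0.718-fold), Aifm2 (0.798-fold) and Fth1 (0.899-fold). The Fth1 call was lost without 6694c2 vehicle replicate 1 (log2 fold change -0.10, adjusted p = 0.156). For Gpx4 the 95% interval of the log2 difference ran from -0.06 to 0.27.

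**Figure D1:**
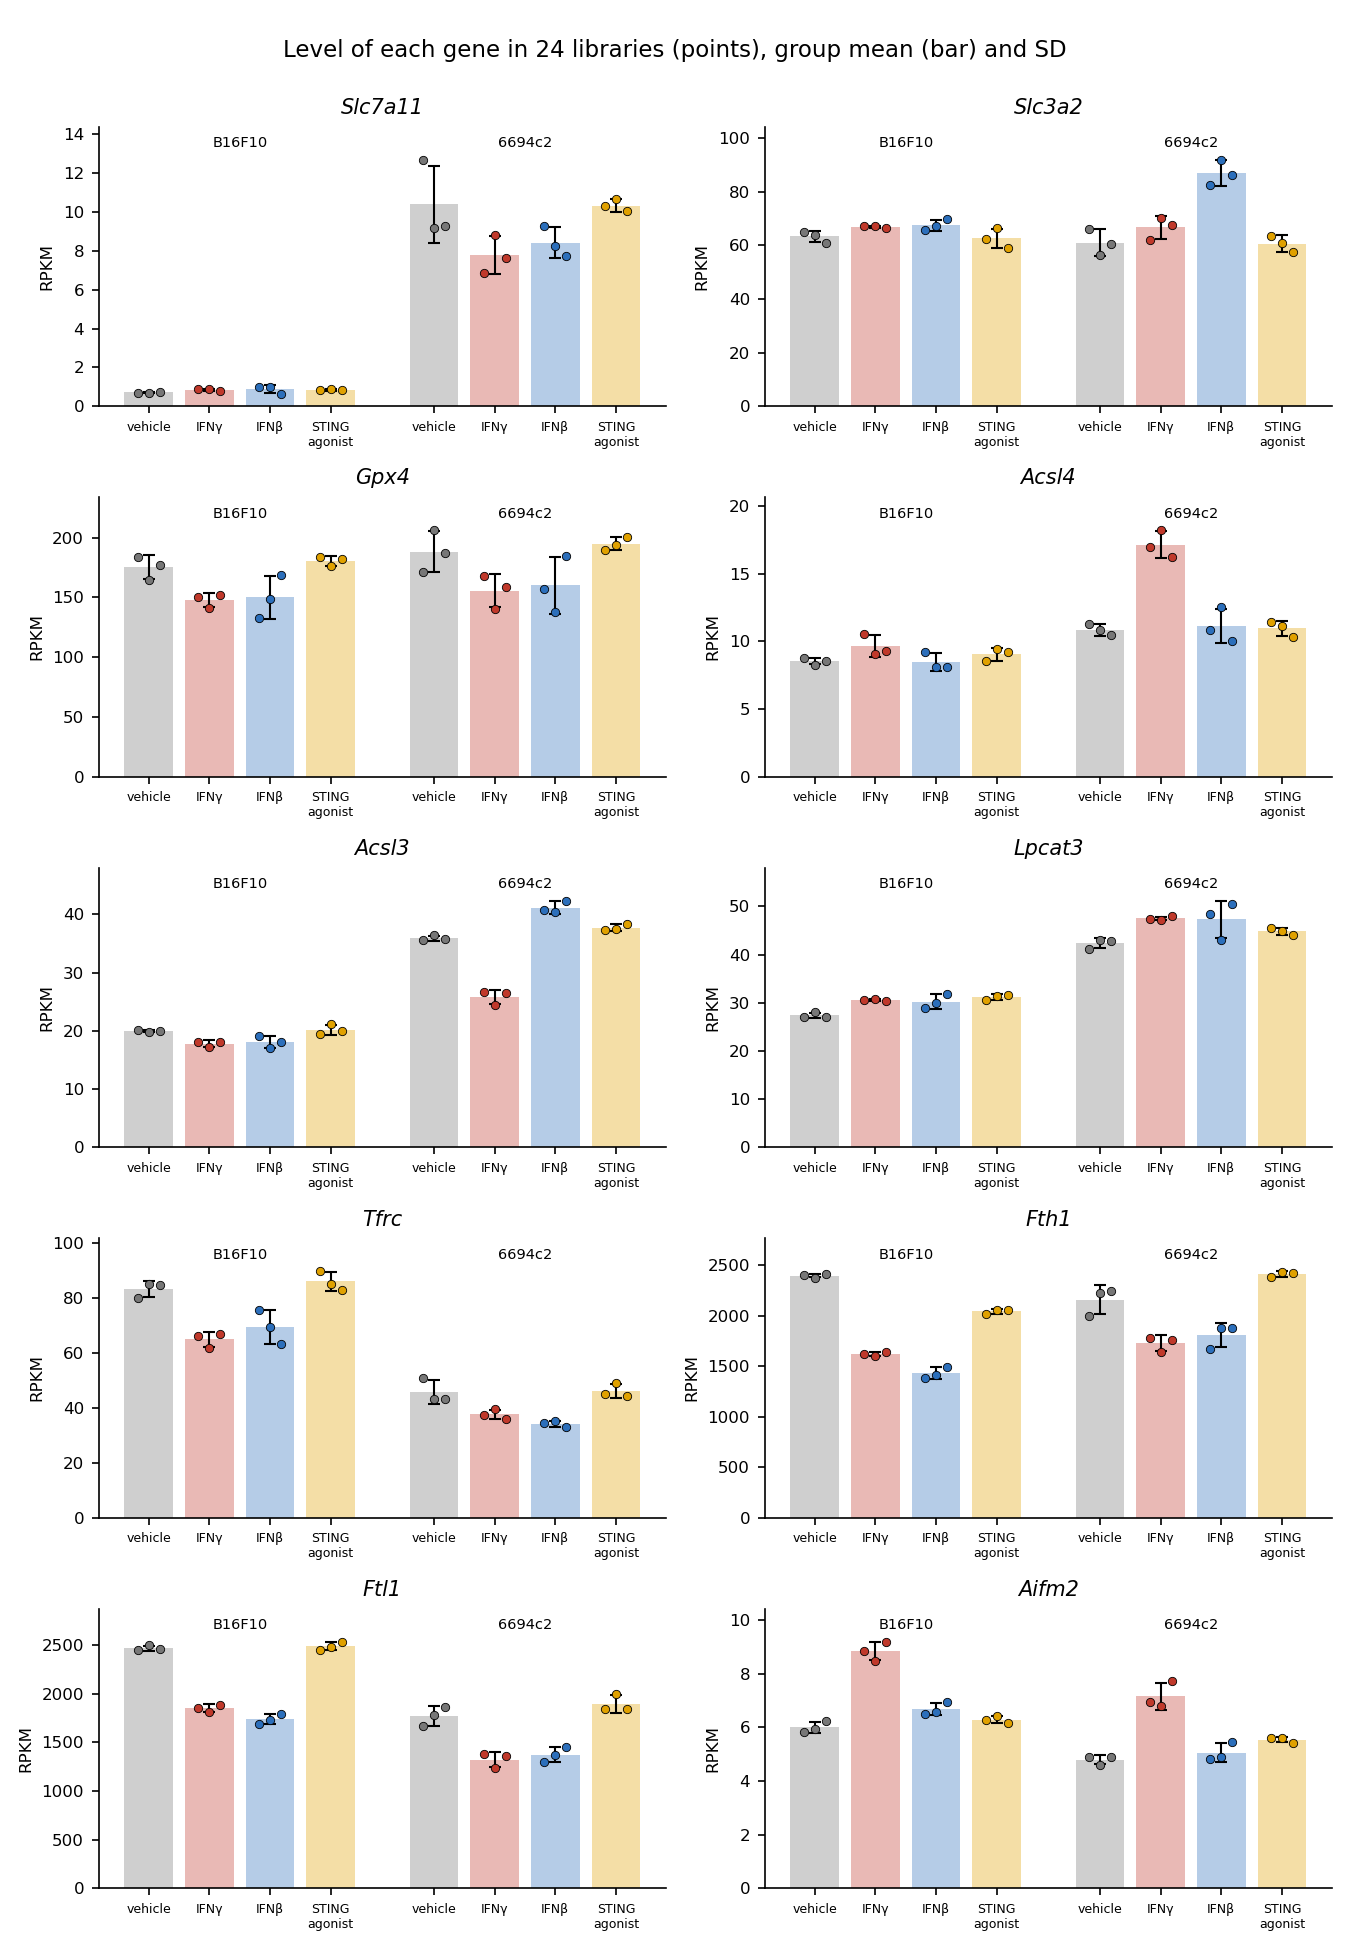
Level of the 10 genes per gene length (RPKM, y axis from 0 in each panel) in B16F10 and 6694c2 cells with vehicle, IFNγ, IFNβ or STING agonist. Points are libraries, bars means and error bars SD (n = 3). Slc7a11 was near 0.7 RPKM in B16F10 vehicle and near 10.4 RPKM in 6694c2 vehicle, and the ferritin genes were lower with both interferons than with vehicle.

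To ask how each line responded, treatments were compared with vehicle within the line by edgeR's quasi-likelihood test, calling genes with an adjusted p-value under 0.05. The 3 treatments of a line share the same 3 vehicle libraries. IFNγ raised 2 and lowered 5 of the 10 genes in B16F10 cells, where 12% of all genes were called higher and 10.8% lower. In 6694c2 cells, IFNγ raised 2 and lowered 6, with 7.89% and 5.66% of all genes called. IFNβ raised 1 and lowered 4 in B16F10 (12.7% and 11.2% of all genes) and raised 3 and lowered 4 in 6694c2 (10.4% and 7.86%). Shares of all genes, here and elsewhere, include many genes of low counts, and the 10 genes were not tested against them. Median log2 fold changes over all genes lay within 0.02 of 0 in these comparisons. The CPM values that follow were scaled within each line.

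The iron storage and uptake genes Fth1, Ftl1 and Tfrc fell with both interferons in both lines. Fth1 in B16F10 libraries was 2219, 2216 and 2243 CPM with vehicle, 1497, 1482 and 1527 CPM with IFNγ and 1290, 1323 and 1393 CPM with IFNβ. The 3 groups did not overlap, and IFNβ libraries were the lowest. Fth1 fell by 32.5% with IFNγ (log2 fold change -0.57 ± 0.0475, adjusted p = 1.17e-26) and fell by 40% with IFNβ (-0.74 ± 0.0476, adjusted p = 8.63e-41). In 6694c2 the vehicle libraries held 1594, 1779 and 1804 CPM, those with IFNγ 1446, 1319 and 1425 CPM, and those with IFNβ 1369, 1548 and 1535 CPM. Every interferon-treated library was below every vehicle library there too, but by less. It decreased by 19.1% with IFNγ (adjusted p = 0.000424) and decreased by 14% with IFNβ (adjusted p = 0.0114). The IFNβ call was lost in 3 of the 6 fits that left out 1 library: without vehicle replicate 2 (log2 fold change -0.19), vehicle replicate 3 (-0.19) or IFNβ replicate 1 (-0.16).

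Ftl1 followed Fth1. In B16F10 it was 3490, 3601 and 3538 CPM with vehicle, 2642, 2603 and 2718 CPM with IFNγ, and 2447, 2512 and 2581 CPM with IFNβ. In 6694c2 it was 2061, 2201 and 2316 CPM with vehicle, 1731, 1535 and 1702 CPM with IFNγ, and 1647, 1745 and 1837 CPM with IFNβ. Treated and vehicle libraries did not overlap in any of these comparisons. In B16F10, Ftl1 fell by 25.1% with IFNγ (adjusted p = 1.35e-16) and fell by 29.1% with IFNβ (adjusted p = 2.15e-22). In 6694c2 it fell by 24.5% (adjusted p = 4.4e-06) and fell by 20.5% (adjusted p = 0.000108). All 4 Ftl1 calls held under every alternative run. The reads of the 2 ferritin genes together made up 0.383 to 0.413% of the library in interferon-treated B16F10 cells and 0.286 to 0.324% in 6694c2, below every vehicle library of the line. The chains differed in size of change: the Ftl1 to Fth1 ratio per length was 1.02 to 1.05 in B16F10 vehicle, 1.14 to 1.15 with IFNγ and 1.20 to 1.23 with IFNβ. In 6694c2 it was 0.799 to 0.835 with vehicle, 0.752 to 0.773 with IFNγ and 0.728 to 0.777 with IFNβ. In B16F10, the summed melanocyte markers moved in the same libraries, at 19600 to 19700 CPM with vehicle and 16000 to 17200 CPM with the interferons, and their part in the ferritin result was not tested.

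The Ftl1 locus holds a short opposite-strand entry, Gm10252, whose log2 fold change was -0.37 and -0.46 in B16F10 and -0.51 and -0.56 in 6694c2 with IFNγ and IFNβ. It had 5648 reads against 1373308 for Ftl1, and strandedness is not given in the sources used here, so their reads cannot be told apart. Annotated copies that carry a ferritin name held few reads: Ftl1-ps1 0.183% of those of Ftl1, and 2 Fth1 copies under 0.002% each. Pseudogenes under other names were not looked up. How reads that map to several places were handled is not given, so reads shared with copies cannot be judged from these shares.

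Tfrc, which supplies the iron that ferritin stores, fell in the same comparisons. B16F10 libraries held 527, 566 and 563 CPM with vehicle, 437, 410.1 and 444 CPM with IFNγ, and 505, 464 and 419.8 CPM with IFNβ. In 6694c2 they held 290.2, 247 and 248 CPM with vehicle, 216, 227 and 209 CPM with IFNγ, and 201, 207 and 193 CPM with IFNβ. No treated library reached the vehicle libraries of its line. In B16F10, Tfrc fell by 22.1% with IFNγ (adjusted p = 4.27e-10) and fell by 16.1% with IFNβ (adjusted p = 1.83e-05). In 6694c2 it fell by 17.1% (adjusted p = 0.00449) and fell by 23.5% (adjusted p = 3.09e-05). In 6694c2 the IFNγ call was lost without vehicle replicate 1, the highest of the vehicle libraries (log2 fold change -0.19, adjusted p = 0.0569).

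Among the lipid defence genes, Gpx4 was lower and Aifm2 higher with IFNγ in both lines. Gpx4 was 338, 306 and 329 CPM in B16F10 vehicle libraries and 275, 260.5 and 281 CPM with IFNγ. It fell by 16% (log2 fold change -0.25 ± 0.0540, adjusted p = 4.89e-05). With IFNβ it was 247, 277 and 313 CPM, so that 1 library lay within the vehicle range, and it fell by 13.9% (adjusted p = 0.000583). Without IFNβ replicate 1, the fall with IFNβ was -0.14 on the log2 scale (adjusted p = 0.0369). In 6694c2, Gpx4 was 273, 328 and 299.5 CPM with vehicle and 271, 225 and 257 CPM with IFNγ, and it fell by 16.4% (adjusted p = 0.0228). That call was lost without vehicle replicate 2 (log2 fold change -0.18), vehicle replicate 3 (-0.26) or IFNγ replicate 2 (-0.19), with the robust fit and with the filterByExpr minimum. With IFNβ the 6694c2 libraries held 256, 226 and 302 CPM and the log2 fold change was -0.20 (adjusted p = 0.0765). The copy Gpx4-ps2 held 5.45% as many reads as Gpx4, and how reads shared between them were assigned is not given in the sources used here.

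Aifm2 was 25.5, 26.4 and 27.6 CPM in B16F10 vehicle libraries and 38.8, 37.5 and 40.6 CPM with IFNγ. In 6694c2 it was 18.6, 17.5 and 18.6 CPM with vehicle and 26.8, 25.98 and 29.8 CPM with IFNγ. The groups were well apart in both lines. Aifm2 rose 1.47-fold in B16F10 (log2 fold change 0.56 ± 0.0810, adjusted p = 5.71e-10) and 1.51-fold in 6694c2 (0.60 ± 0.0914, adjusted p = 2.28e-06), and both calls held under every alternative. With IFNβ it was 28.9, 29.3 and 30.7 CPM in B16F10 and 18.7, 19.2 and 21.3 CPM in 6694c2. Neither passed the test, with log2 fold changes of 0.16 (adjusted p = 0.161) and 0.11 (adjusted p = 0.498). Compared directly, Aifm2 was lower with IFNβ than with IFNγ in both lines (0.76-fold, adjusted p = 2.21e-05, and 0.714-fold, adjusted p = 5.18e-05).

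Of the acyl-CoA synthetases, Acsl4 rose in 6694c2 with IFNγ, and Acsl3 fell there with IFNγ and rose with IFNβ. Acsl4 was 56.4, 53.9 and 52.4 CPM with vehicle and 86.0, 91.5 and 82.2 CPM with IFNγ, a 1.59-fold rise (log2 fold change 0.67 ± 0.0777, adjusted p = 4.49e-09). With IFNβ it was 55.4, 64.3 and 51.2 CPM, around the vehicle values. Acsl3 was 143, 146 and 144 CPM with vehicle, 108.5, 99.0 and 107.9 CPM with IFNγ, and 168, 167 and 175 CPM with IFNβ. The 3 groups did not overlap: Acsl3 fell by 27.2% with IFNγ (adjusted p = 4.69e-07) and rose 1.17-fold with IFNβ (adjusted p = 0.00698). Directly compared, IFNβ left Acsl3 1.61-fold higher (adjusted p = 1.65e-11) and Acsl4 0.658-fold lower (adjusted p = 4.46e-08) than IFNγ. These 6694c2 calls of Acsl4 and Acsl3 held under every alternative.

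Utp14b lies inside Acsl3 on the same strand, with 6655 reads against 65768, and its log2 fold change in 6694c2 was -0.45 with IFNγ and 0.12 with IFNβ, the latter not called. Reads of the overlap cannot be told apart in the counts.

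In B16F10 the values of both genes were closer to vehicle. Acsl4 was 50.5, 48.2 and 49.8 CPM with vehicle and 60.9, 52.8 and 53.9 CPM with IFNγ (log2 fold change 0.18, adjusted p = 0.0537), and 53.7, 47.3 and 47.3 CPM with IFNβ. Acsl3 was 93.0, 92.6 and 93.4 CPM with vehicle, 83.8, 80.1 and 84.9 CPM with IFNγ, and 89.5, 80.6 and 85.03 CPM with IFNβ. It fell by 10.8% with IFNγ (log2 fold change -0.16, adjusted p = 0.0384), a call lost in each of the 6 fits that left out 1 library. With IFNβ the Acsl3 log2 fold change was -0.13 (adjusted p = 0.123).

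The Lpcat3 mean was slightly above vehicle with each treatment in each line, but not each rise was called. With STING agonist the log2 fold change was 0.18 in B16F10 (adjusted p = 0.0803) and 0.085 in 6694c2 (adjusted p = 0.809). B16F10 libraries held 94.1, 98.6 and 95.4 CPM with vehicle, 106, 108 and 106.5 CPM with IFNγ, and 102, 106 and 112 CPM with IFNβ. In 6694c2 they held 124.5, 129.9 and 129 CPM with vehicle, 145, 143.5 and 147 CPM with IFNγ, and 149, 134 and 156.5 CPM with IFNβ. No interferon-treated library fell into the vehicle range of its line. The calls sat at the threshold: 1.11-fold with IFNγ in B16F10 (adjusted p = 0.0472), lost in each of the 6 fits without 1 library, and 1.15-fold with IFNβ in 6694c2 (adjusted p = 0.0323), lost in 5 of 6. The remaining log2 fold changes were 0.15 with IFNβ in B16F10 (adjusted p = 0.0547) and 0.18 with IFNγ in 6694c2 (adjusted p = 0.0662). Emg1, which overlaps Lpcat3 on the opposite strand, was not called in any of these comparisons. It had 89540 reads against 68292 for Lpcat3. Strandedness is not given in the sources used here, so reads of the overlap cannot be told apart.

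The 2 chains of system xc- did not move together. Slc3a2 rose with IFNβ in 6694c2, from 215.5, 183 and 198 CPM with vehicle to 275, 308 and 288 CPM, a 1.46-fold rise (log2 fold change 0.55 ± 0.0696, adjusted p = 4.4e-08). With IFNγ it was 205, 230.5 and 223 CPM, overlapping vehicle (log2 fold change 0.14, adjusted p = 0.207), and it was 1.32-fold higher with IFNβ than with IFNγ (adjusted p = 2.25e-05). In B16F10 it stayed between 231 and 245 CPM with vehicle, 251 and 254 CPM with IFNγ, and 250.1 and 265 CPM with IFNβ, and neither interferon gave a call.

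Slc7a11 in 6694c2 was 163, 118 and 119.5 CPM with vehicle, 89.5, 114 and 99.5 CPM with IFNγ and 122, 109 and 102 CPM with IFNβ. The first vehicle library stood above the rest, and 1 IFNβ library lay within the vehicle range. Slc7a11 fell by 24.4% with IFNγ (log2 fold change -0.40 ± 0.0900, adjusted p = 0.000997) and fell by 16.9% with IFNβ (adjusted p = 0.0294). Without vehicle replicate 1, these were -0.23 (adjusted p = 0.0305) and -0.10 (adjusted p = 0.497) on the log2 scale, and a robust fit called neither (adjusted p = 0.103 and 0.263). Without IFNβ replicate 3 the IFNβ value was -0.21 (adjusted p = 0.112). The Slc3a2 to Slc7a11 ratio per length was 8.90 to 11.1 with IFNβ and 7.95 to 9.05 with IFNγ, above all 3 vehicle libraries.

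In B16F10, where Slc7a11 was low, values were 10.5, 10.5 and 10.98 CPM with vehicle, 12.8, 13.4 and 11.9 CPM with IFNγ, and 14.9, 14.9 and 9.395 CPM with IFNβ. The IFNβ libraries lay on either side of the vehicle range, and replicate 3 was the lowest of all. The rise with IFNβ (1.23-fold, adjusted p = 0.0441) was lost under 12 of 14 alternatives, among them DESeq2 (adjusted p = 0.134). Without IFNβ replicate 3 it was 0.48 on the log2 scale (adjusted p = 0.000364), and without replicate 1 or 2 it was 0.18 (adjusted p = 0.338 and 0.379). With IFNγ the log2 fold change was 0.25 (adjusted p = 0.108). Less the share of 6694c2-specific transcripts in each library, the IFNβ value was 0.28 (adjusted p = 0.0629).

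STING agonist changed 1 of the 10 genes in B16F10 cells, where 3.46% of all genes were called, and 0 of 10 in 6694c2, where 0.36% were. With DESeq2 the counts were 2 and 0, against 2.9% and 0.497% of all genes. At an unadjusted p under 0.05 they were 3 and 2, against 13% and 7.81% of all genes. Fth1 in B16F10 was 1873, 1887 and 1904 CPM, below every vehicle library, and it fell by 15.2% (log2 fold change -0.24 ± 0.0474, adjusted p = 9e-05), while Ftl1, at 3521, 3524 and 3632 CPM, overlapped vehicle (log2 fold change 0.01). The Ftl1 to Fth1 ratio was then 1.21 to 1.23, near that with IFNβ. In 6694c2, Fth1 was 1905, 1956 and 1947 CPM, above all vehicle libraries, with a log2 fold change of 0.17 that did not pass the test (adjusted p = 0.447). Slc7a11 in B16F10 was 12.4, 13.3 and 12.25 CPM with STING agonist (log2 fold change 0.25, adjusted p = 0.334), and 0.15 less the share of 6694c2-specific transcripts, which was highest in these libraries. The 95% intervals of the other 6694c2 genes lay between -0.18 and 0.40 on the log2 scale, the upper bound being that of Aifm2.

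**Figure D2:**
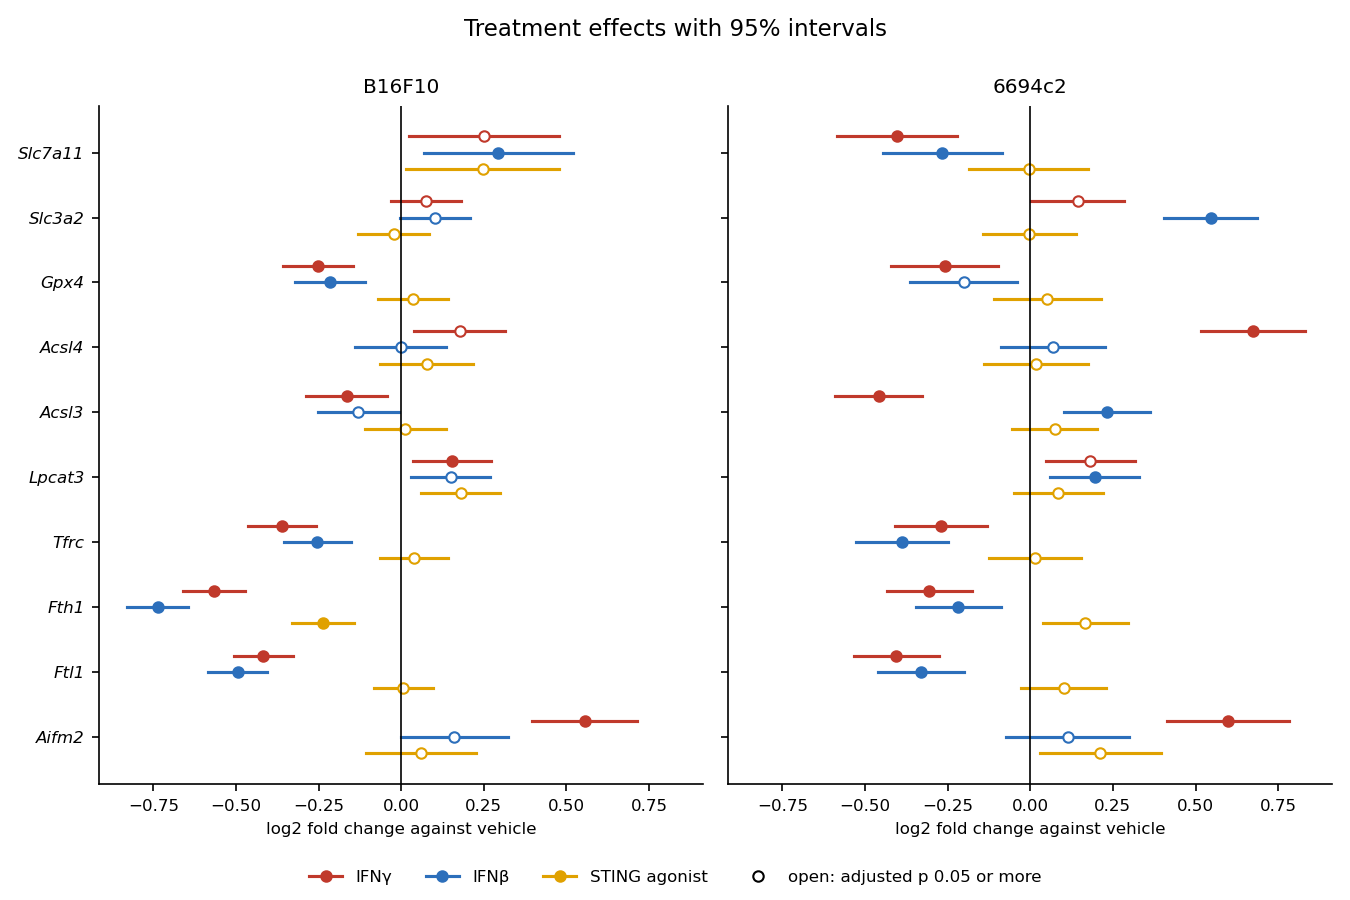
Log2 fold change against vehicle (x axis) of the 10 genes in B16F10 (left) and 6694c2 cells (right), with 95% intervals; filled points passed an adjusted p under 0.05, open points did not. Fth1, Ftl1 and Tfrc lie left of 0 with both interferons in both lines, Aifm2 lies near 0.6 with IFNγ, and Acsl3 in 6694c2 lies at -0.46 with IFNγ and 0.23 with IFNβ.

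The interaction of line and treatment, fitted to the 24 libraries together, tested whether the lines responded differently. It was called for 4 of 10 genes with IFNγ (9.47% of all genes), 4 with IFNβ (12.1%) and 1 with STING agonist (2.12%). Fth1 was in all 3 sets, with a higher log2 fold change in 6694c2 than in B16F10 for each treatment. It fell more in B16F10 with both interferons, and with STING agonist it fell in B16F10 and was above vehicle, without a call, in 6694c2. The differences were 0.25 (adjusted p = 0.0404), 0.49 (adjusted p = 1.56e-05) and 0.39 (adjusted p = 0.00176) on the log2 scale, 6694c2 minus B16F10. For Ftl1 the same differences were -0.01, 0.14 and 0.08, and none was called. Slc7a11 differed with IFNγ (-0.67, adjusted p = 0.00667) and IFNβ (-0.59, adjusted p = 0.0156), Acsl4 with IFNγ (0.48, adjusted p = 0.00207), and Slc3a2 with IFNβ (0.42, adjusted p = 0.000806). Acsl3 differed in both, in opposite directions (-0.31 with IFNγ, adjusted p = 0.00816, and 0.34 with IFNβ, adjusted p = 0.00313). Aifm2, Gpx4, Tfrc and Lpcat3 gave no call, and for Aifm2 with IFNγ the 95% interval of the difference ran from -0.20 to 0.24.

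**Figure D3:**
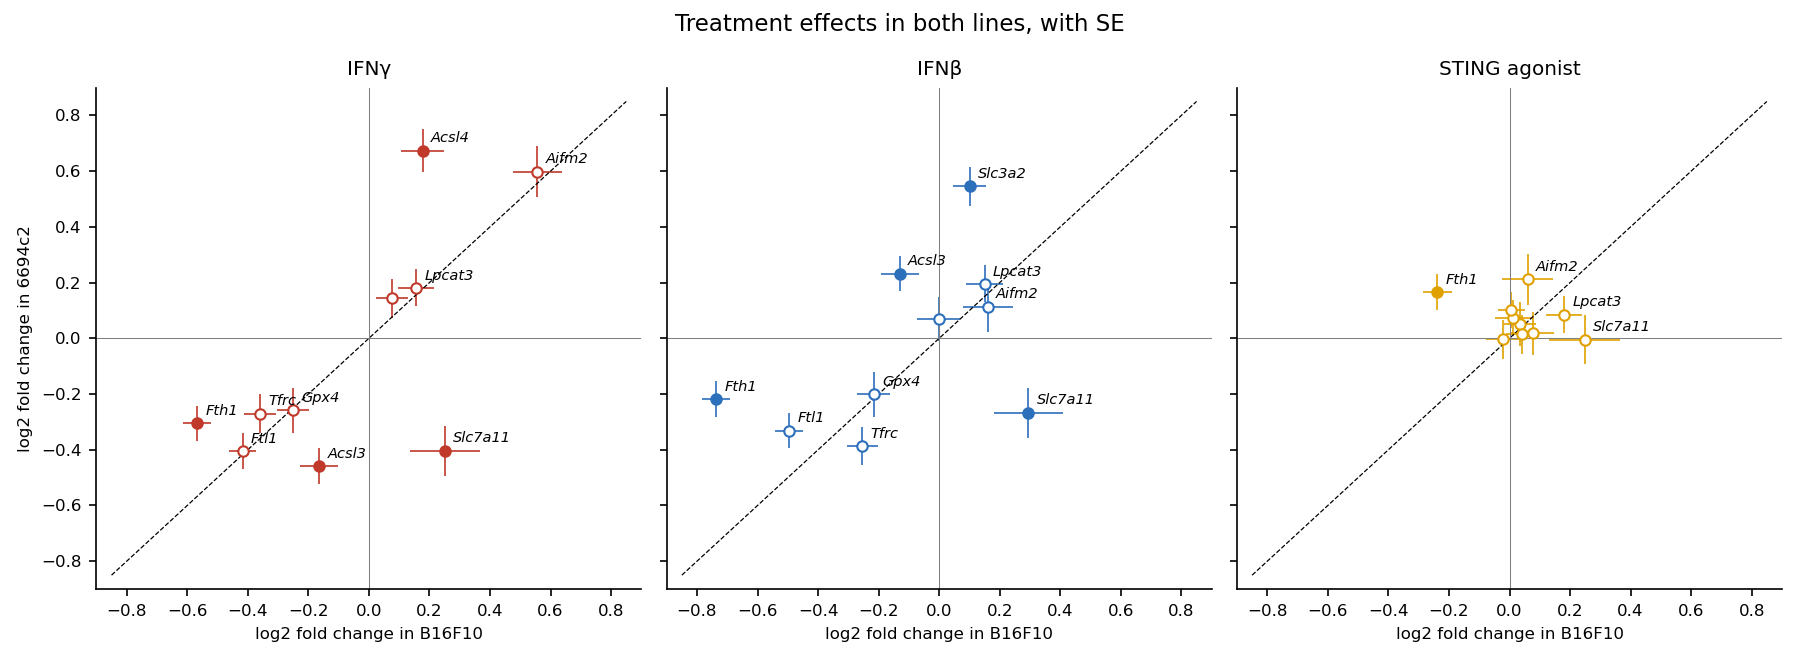
Log2 fold change against vehicle in B16F10 (x axis) and 6694c2 (y axis) for IFNγ, IFNβ and STING agonist, with SE; filled points differed between the lines by the interaction test, the dashed line marks equal effects, and names are given for genes with a log2 fold change of at least 0.15 in size in either line. Fth1 lies above the line in each panel and Slc7a11 below it, while Aifm2 with IFNγ lies close to it.

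The direct comparison of IFNβ with IFNγ called 2 of 10 genes in B16F10 (14.5% of all genes) and 4 in 6694c2 (13.9%). In B16F10 these were Aifm2 and Fth1, the latter at 0.889-fold of its IFNγ level (adjusted p = 0.00442). In 6694c2 they were Slc3a2 and Acsl3, higher with IFNβ, and Acsl4 and Aifm2, lower. Fth1 in 6694c2 went the other way without a call (log2 fold change 0.09, adjusted p = 0.458).

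Order across the 8 groups was read from the RPKM means. Tfrc was highest in B16F10 with STING agonist and vehicle (86.0 ± 3.45 and 83.2 ± 2.79 RPKM), which did not differ beyond their spread, and lowest in 6694c2 with IFNβ (34.2 ± 1.17 RPKM); all B16F10 groups were above all 6694c2 groups. Acsl3 had the reverse order of lines, from 41.2 ± 1.05 RPKM in 6694c2 with IFNβ to 17.8 ± 0.557 RPKM in B16F10 with IFNγ, and 6694c2 with IFNγ (25.8 ± 1.20 RPKM) was still above every B16F10 group. Acsl4 in 6694c2 with IFNγ (17.2 ± 0.999 RPKM) stood above the other 7 groups, which spanned 8.48 to 11.1 RPKM. Aifm2 was highest in B16F10 with IFNγ (8.84 ± 0.352 RPKM), followed by 6694c2 with IFNγ (7.15 ± 0.510 RPKM), whose spread overlapped that of B16F10 with IFNβ (6.67 ± 0.227 RPKM).

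Across the 24 libraries, after centring log2 CPM within each line, Fth1 and Ftl1 varied together (Pearson r = 0.946), Gpx4 and Tfrc with Ftl1 (0.85 and 0.821), and Acsl4 opposite to Acsl3 (-0.818). These are descriptions, since libraries of a group share a treatment. Among 10466 genes, the most alike were Arpc5l and the processed pseudogene Gm11451 for Fth1 (0.952 and 0.949), and 1810058I24Rik and Eif1 for Ftl1 (0.96 and 0.952). For Slc3a2 they were Pdia4, an endoplasmic reticulum disulfide isomerase, and Arhgap26 (0.944 and 0.918), and for Aifm2 Il12rb1 and Mgst1, a microsomal glutathione transferase (0.946 and 0.934). For Acsl4 they were Top2a, a topoisomerase of dividing cells, and Tubb3 (0.939 and 0.929), for Acsl3 Pea15a and Urm1 (0.926 and 0.921), and for Tfrc Klhl2 and Zdhhc2 (0.928 and 0.912). For Gpx4 they were Nenf and Minos1 (0.915 and 0.913), while Slc7a11 (Ppip5k2 and Evi5, 0.838 and 0.837) and Lpcat3 (Kif9 and Os9, 0.778 and 0.758) had looser companions.

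Another 63 genes of these pathways were followed in 4 lists, and 61 of them were tested. With IFNγ, 14 were higher and 9 lower in B16F10 (23% and 14.8%, against 12% and 10.8% of all genes), and 16 and 10 in 6694c2 (26.2% and 16.4%, against 7.89% and 5.66%). With IFNβ, 13 were higher and 15 lower in B16F10 (21.3% and 24.6%, against 12.7% and 11.2%), and 13 and 13 in 6694c2 (21.3% each, against 10.4% and 7.86%). With STING agonist 5 were called in B16F10, where 3.46% of all genes were called, and 2 in 6694c2, where 0.36% were. These shares of all genes include many of low counts, and the lists were not tested against them. List medians lay between -0.19 and 0.18 on the log2 scale, against 0 to 0.02 over all genes.

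Of 9 genes of cystine import and glutathione synthesis, Chac1, which degrades glutathione, rose with both interferons in both lines. Its mean went from 3.88 ± 1.04 CPM with vehicle to 7.90 ± 0.330 CPM with IFNγ and 15.3 ± 1.56 CPM with IFNβ in 6694c2 (log2 fold changes 1.02 and 1.98), and from 13.1 ± 1.79 to 22.7 ± 1.25 and 31.7 ± 3.26 CPM in B16F10 (0.79 and 1.27). It also rose with STING agonist in B16F10 (0.43, adjusted p = 0.00211). Ggct, the γ-glutamylcyclotransferase, rose with IFNγ: from 15.2 ± 1.22 to 56.9 ± 4.49 CPM in 6694c2 and from 17.9 ± 1.15 to 35.5 ± 2.87 CPM in B16F10. With IFNβ it stood at 16 ± 0.768 and 20.2 ± 1.91 CPM. Of the glutathione-making genes, Gss fell in 6694c2 with IFNγ and IFNβ (-0.45 and -0.29) and rose in B16F10 with IFNβ (0.38). Gclc fell in 6694c2 with IFNβ (-0.45). Gclm rose in B16F10 with IFNγ (0.50), from 70.1 ± 1.66 to 99.3 ± 4.47 CPM, and fell with IFNβ in both lines (-0.34 in B16F10 and -0.19 in 6694c2). The reductase Gsr fell in B16F10 with IFNγ and IFNβ (-0.36 and -0.31). The glutamine carrier Slc1a5 rose in 6694c2 with IFNβ (0.44), and was also called higher there with IFNγ and in B16F10 with IFNβ. In all, 3 were higher and 1 lower with IFNγ in B16F10, 4 and 2 with IFNβ, 4 and 1 with IFNγ in 6694c2, and 2 and 3 with IFNβ. Over all genes, higher and lower calls made up 12% and 10.8% with IFNγ in B16F10, 12.7% and 11.2% with IFNβ, 7.89% and 5.66% with IFNγ in 6694c2, and 10.4% and 7.86% with IFNβ.

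Of 12 genes of lipid radical and peroxide defence, Gch1, which starts the synthesis of the antioxidant tetrahydrobiopterin, rose with IFNβ in 6694c2, from 25.9 ± 0.719 CPM with vehicle to 128 ± 11.1 CPM (log2 fold change 2.31 ± 0.0877, adjusted p = 7.55e-25), against 28.9 ± 4.16 CPM with IFNγ. Nqo1, a quinone reductase, fell in 6694c2 from 26.8 ± 1.21 to 13.3 ± 1.09 CPM with IFNγ and 15.7 ± 1.09 CPM with IFNβ, and rose to 39.5 ± 1.23 CPM with STING agonist (adjusted p = 0.000112). Keap1, the repressor of NRF2, rose with IFNγ in B16F10 (0.72) and 6694c2 (0.63). Nfe2l2, the gene for NRF2, was also called higher with IFNγ in B16F10 (0.29) and 6694c2 (0.26), and was not called with IFNβ. The aldose reductase Akr1b3 rose with both interferons in both lines (0.30 and 0.44 in B16F10, 0.48 and 0.81 in 6694c2). Hmox1, which breaks down heme and frees its iron, rose with IFNβ in 6694c2 (0.94) and B16F10 (0.38) and with IFNγ in B16F10 (0.22). Further calls of named genes were higher Keap1 with IFNβ in both lines, higher Gch1 and lower Nqo1 with IFNβ in B16F10, and lower Pir with IFNβ in 6694c2. The peroxidase Prdx6 and thioredoxin reductase Txnrd1 fell in B16F10 with IFNγ (-0.34 and -0.18), IFNβ (-0.43 each) and STING agonist (-0.20 and -0.23), and Txnrd1 fell in 6694c2 with IFNβ (-0.25). Pir, which fell in 6694c2 with IFNγ (-0.61), was called higher with STING agonist in B16F10, where it was at 0 reads with vehicle and at 0.284 ± 0.0741 CPM with the agonist, next to 17.2 ± 1.39 CPM in 6694c2 vehicle and the 0.936 to 1.15% of 6694c2-specific transcripts in the same libraries. Counts were 4 higher and 3 lower with each interferon in B16F10, 3 and 2 with IFNγ in 6694c2, and 4 and 4 with IFNβ, of 12 genes. The shares over all genes were, for higher and lower, 12% and 10.8% (IFNγ) and 12.7% and 11.2% (IFNβ) in B16F10, and 7.89% and 5.66%, then 10.4% and 7.86%, in 6694c2.

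Of 17 tested genes of lipid supply and peroxidation, Acsl5, another acyl-CoA synthetase, rose with IFNγ in B16F10 from 134 ± 7.29 to 261 ± 3.17 CPM (log2 fold change 0.96) and in 6694c2 from 718 ± 20.4 to 909 ± 6.53 CPM (0.34). The desaturase Fads2 rose with IFNγ in B16F10 (0.45). Mboat1 and Mboat2, acyltransferases that place monounsaturated fatty acids in phospholipids, fell there (-0.39 and -0.38), and Mboat2 fell in 6694c2 with IFNβ from 8.62 ± 0.718 to 3.97 ± 0.976 CPM. The desaturase Scd2 fell with IFNβ in both lines (-0.31 and -0.46), and Fads1 in B16F10 (-0.33). Sat1, a polyamine acetyltransferase, rose with IFNβ in both lines (0.23 and 0.28) and with IFNγ in 6694c2 (0.53), and Por, the P450 reductase, rose with IFNβ in 6694c2 (0.43). With IFNγ in 6694c2, Pebp1 (-0.20) and Alox15 fell, the latter from 0.366 ± 0.205 to 0.0682 ± 0.0238 CPM. STING agonist raised Scd1 in B16F10 (0.21). The same genes were also called higher (Scd1 with IFNγ in B16F10, Fads2 and Por with IFNγ in 6694c2) or lower (Mboat2 with IFNβ and Pebp1 with IFNγ in B16F10, Fads1 with IFNβ in 6694c2), and Acsl1 was called lower with IFNβ in B16F10 (-0.20). Counts were 4 higher and 3 lower with IFNγ and 1 and 4 with IFNβ in B16F10, and 4 and 2 with IFNγ and 2 and 3 with IFNβ in 6694c2. With 17 genes, they stand beside the same shares over all genes, 12% and 10.8%, 12.7% and 11.2%, 7.89% and 5.66%, and 10.4% and 7.86%, in that order.

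Of 23 tested genes of iron uptake, storage, export and regulation, Cp (ceruloplasmin, a ferroxidase) and Slc25a28 (mitoferrin 2, which carries iron into mitochondria) both rose with IFNγ in B16F10 (0.44 and 0.78), with IFNβ in 6694c2 (1.05 and 1.09) and with IFNγ in 6694c2. Cp rose further with IFNγ in 6694c2, from 56.2 ± 2.67 to 164 ± 6.16 CPM, and fell with STING agonist there to 42.6 ± 2.52 CPM (adjusted p = 0.00126). Fbxl5, the ligase subunit that degrades an iron regulatory protein when iron is ample, rose with IFNγ in 6694c2 from 68.1 ± 2.29 to 108 ± 2.33 CPM. The iron exporter Slc40a1 (ferroportin) fell in the same comparison from 25.2 ± 0.910 to 17.5 ± 0.896 CPM. The heme carrier Slc48a1 fell with both interferons in both lines (-0.31 and -0.36 in B16F10, -0.28 and -0.52 in 6694c2), Cisd1 fell with both in B16F10 (-0.29 and -0.37), and transferrin (Trf) fell with IFNβ in 6694c2 (-0.37). In B16F10 with IFNβ, Slc25a28 (0.53) and the endosomal ferrireductase Steap3 (0.28) rose. Steap3 was also called higher with IFNγ in B16F10, Fbxl5 higher with IFNβ in 6694c2, and Trf lower with IFNβ in B16F10. Counts were 3 higher and 2 lower with IFNγ and 4 and 6 with IFNβ in B16F10, and 5 and 5 with IFNγ and 5 and 3 with IFNβ in 6694c2. In the same order the shares over all genes were 12% and 10.8%, 12.7% and 11.2%, 7.89% and 5.66%, and 10.4% and 7.86%, and with 23 genes the B16F10 counts with IFNγ were near them.

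**Figure D4:**
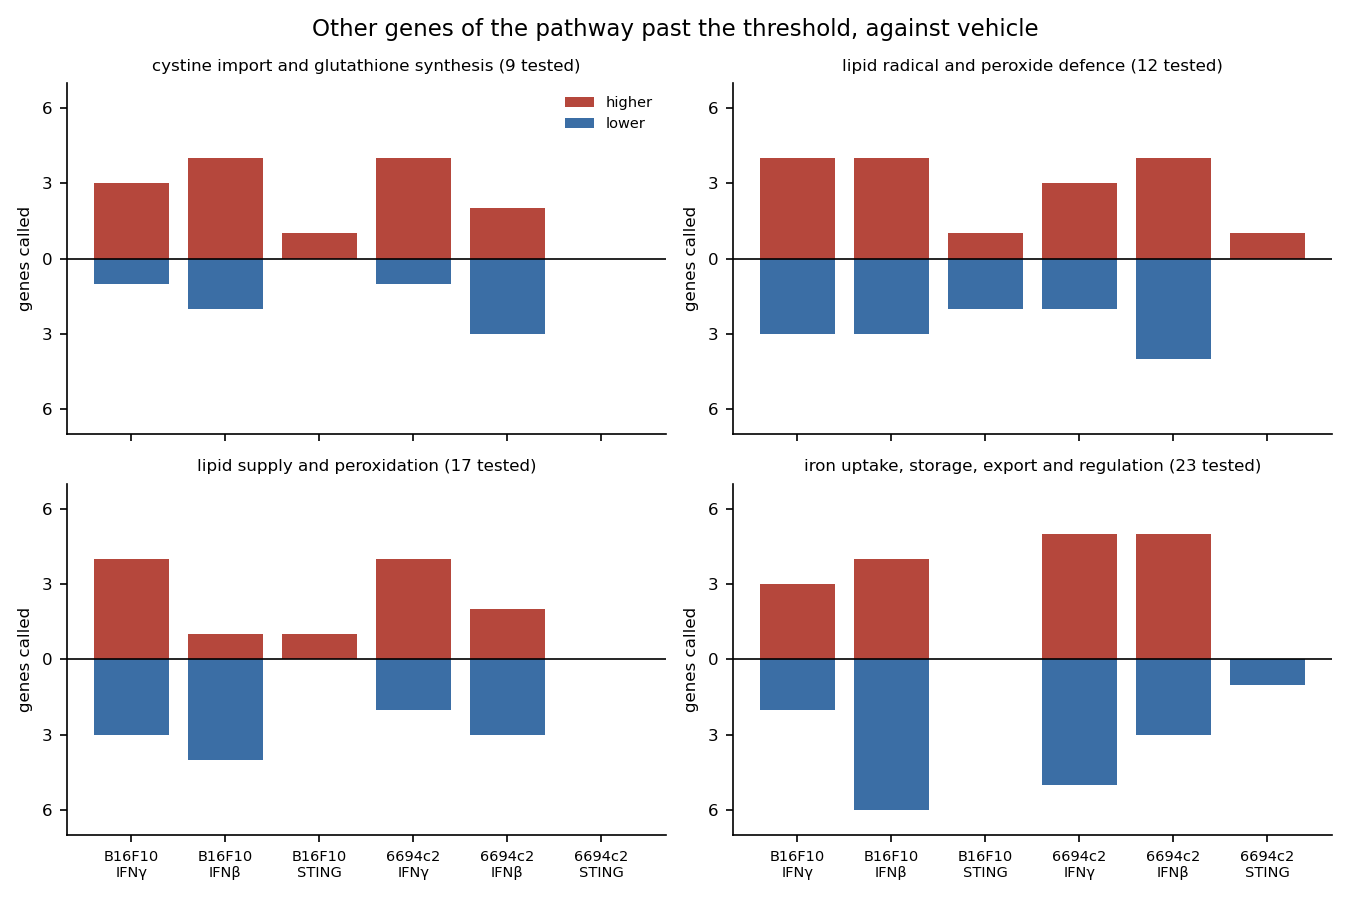
Number of genes (y axis) of each of the 4 lists that passed an adjusted p under 0.05 against vehicle, higher above 0 and lower below it, for 3 treatments in 2 lines. Both directions occur in each list with each interferon, and STING agonist gives at most 3 calls in a list.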

How the data were processed

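Bulk polyA RNA of 24 libraries (2 lines, 4 treatments, 3 libraries each) was analysed, and the 6 single-cell samples were not analysed here. The authors trimmed adaptors with cutadapt, aligned the read pairs with STAR and used Rsubread for counting, and the deposited values are raw counts per gene without normalization. The submitters' processing notes name mm10. The annotation release, strandedness and handling of multi-mapping reads are not given in the sources used here. Symbols were found for 48970 of 49315 identifiers, and 9 of the 10 genes have the same start, end and strand in GENCODE M21 (GRCm38), Fth1 being the exception.

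The 10 genes and the 4 lists were chosen with earlier results of these data known. Genes with at least 10 reads over the 24 libraries were kept (21138 genes). Counts were fitted in edgeR 4.0.16 (R 4.3.3) with group means over the 12 libraries of a line, TMM factors, the quasi-likelihood test and Benjamini-Hochberg adjustment over all genes kept, with a threshold of 0.05. Differences between lines used all 24 libraries. The 95% intervals use the moderated degrees of freedom and cover the spread between these libraries. An exact two-sided test of 3 against 3 libraries cannot go below p = 0.1. The fit was tested on simulated data. RPKM used gene lengths of the count tables. Of the genes called in a list, those with the 2 lowest p-values among higher and among lower genes are named. Their other calls and levels, and Acsl1 and Nfe2l2, were added after the values were seen. Line-specific transcripts were those of at least 50 CPM in the vehicle of a line and under 2% of that level in the other. Alternatives were DESeq2 1.42.0, RLE size factors, filterByExpr, no filter, a replicate block, a robust fit, each library left out, only the groups compared, counts summed with copies, and counts less the cross-line share. One gene of the interferon check and one allele of the 6694c2 line are not reported here.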

Additional observations from a re-analysis of the deposited data

Results flagged for a closer look

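These 9 results are listed because the response of a gene differed between the 2 lines in the interaction test of edgeR, as log2 fold change in 6694c2 minus that in B16F10. With IFNγ they are Slc7a11 (-0.67), Acsl4 (0.48), Acsl3 (-0.31) and Fth1 (0.25). With IFNβ they are Slc7a11 (-0.59), Slc3a2 (0.42), Acsl3 (0.34) and Fth1 (0.49), and with STING agonist Fth1 (0.39). The means of Slc7a11 with either interferon were below vehicle in 6694c2 and above it in B16F10. Its IFNγ difference was lost with a robust fit (adjusted p = 0.0685), and its IFNβ difference with a robust fit and in 5 fits that left out 1 library. In the lone vehicle library of 6694c2 that stands above the others, Slc7a11 was 163 CPM against 118 and 119.5, and without it the IFNβ difference was -0.42 (adjusted p = 0.0684). The Acsl3 difference with IFNγ was lost in 5 fits without 1 library, at -0.25 to -0.27, each of them without a B16F10 library. The Fth1 difference with IFNγ was lost without 6694c2 vehicle replicate 1 (0.19) or IFNγ replicate 1 (0.22) or 3 (0.23), while those with IFNβ and STING agonist were kept under every alternative. Groups of 3 libraries were not tested for outlying samples.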

How the results depend on the processing

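Of 51 calls of the 10 genes over 12 comparisons, 37 were kept under every alternative and 14 were lost under at least 1, and of 69 values not called, 10 were called under at least 1. No call changed direction. Among the latter, Acsl4 with IFNγ and Lpcat3 with IFNβ in B16F10 were each called under 5 of 14 alternatives. The number of the 10 genes called with STING agonist in B16F10 was 1, and 2 with DESeq2, the filterByExpr minimum or only the 2 groups compared, the second being Lpcat3. It was 2 for IFNβ directly against IFNγ in B16F10 and 4 with DESeq2, which added Acsl4 and Ftl1. Over all genes, STING agonist in B16F10 gave 732 calls, 1271 with only the 2 groups and 415 to 568 without 1 library. In 6694c2 it gave 76, and 44 with the filterByExpr minimum, 155 with no filter, 126 with the replicate block, 132 with only the 2 groups, 45 less the cross-line share and 42 to 105 without 1 library. The difference between lines with STING agonist gave 449, 743 with DESeq2 and 166 less the cross-line share. The causes were not tested.

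Replicate numbers are shared between groups, but same-numbered libraries did not deviate together (correlations of -0.149 to 0.127 over 8 comparisons). The labels do not say whether they were cultured or prepared together, and 3 libraries per group cannot exclude it. With the replicate block, 1 call of the 10 genes was lost (Slc7a11 with IFNβ in B16F10, adjusted p = 0.0517). It added Lpcat3 with IFNβ in B16F10 and Gpx4 with IFNβ in 6694c2. Slc7a11 in B16F10, near 10 CPM, is the least precise of the 10.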
